A study of Mus musculus with 4 samples.

Results

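The common gamma chain cytokine receptors were taken as the 8 listed genes Il2ra, Il2rb, Il2rg, Il4ra, Il7r, Il9r, Il15ra and Il21r, out of 11027 genes listed for each library. All 8 had counts in every library and all 8 entered the tests, which covered 10960 genes. RNA-seq measured expression in CD4+ T cells that came from the spleen and lymph nodes of wild type C57BL/6 mice aged 7 to 8 weeks. Naive cells were activated, transduced under neutral conditions, sorted for GFP and then cultured. The virus was either a GFP-only control retrovirus or one that carries Tox2, an HMG-box protein, with GFP. In the Th0 culture, antibodies blocked IFN-gamma, IL-4 and IL-2. The Tfh-like culture added IL-6 to these antibodies, so IL-2 and IL-4, which are ligands of this receptor family, were blocked in every group. Each of the 4 groups was 1 library (Th0-GFP, Tfh-like-GFP, Th0-Tox2, Tfh-like-Tox2), and how many animals stood behind each is not given in the sources used here. Tox2 is overexpressed in the Tox2 groups, and its counts were 144 and 851 in Th0-GFP and Tfh-like-GFP, and 35297 and 32246 with Tox2, high only under the labels that name Tox2.

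Receptors of this family share one signalling chain, gamma-c, encoded by Il2rg, and each cytokine adds further chains. IL-2 and IL-15 share the beta chain Il2rb, to which Il2ra (CD25) adds high affinity for IL-2 and Il15ra binds IL-15. Il4ra, Il7r, Il9r and Il21r pair with gamma-c for IL-4, IL-7, IL-9 and IL-21. Il2rb, Il4ra, Il7r, Il9r and Il21r signal through JAK1 and gamma-c through JAK3 to STAT proteins. These are STAT5 above all for IL-2, IL-7, IL-9 and IL-15, STAT6 for IL-4 and STAT3 for IL-21. In T cells IL-2 signalling through STAT5 is known to oppose the T follicular helper (Tfh) fate, and IL-21 is a product of Tfh cells.

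The total of the listed counts was between 13015283 and 13673774 per library. The 6 markers of T cells were all listed, with a summed level of 3781 to 4338 CPM (counts scaled to library depth) in the 4 libraries. Of other cell types, Cd8b1 stood alone for CD8 T cells at 9.14 to 15.4 CPM, and Cd8a was not among the listed genes. Of B cell markers 1 of 4 was listed (Cd79a, 0.766 to 1.73 CPM), of NK cell markers 1 of 3 (Klrd1, 1.30 to 4.14 CPM), of macrophage and monocyte markers 2 of 5 (summed 1.30 to 2.90 CPM) and of dendritic cell markers 2 of 4 (summed 1.99 to 4.93 CPM). Ms4a1, Cd79b, Pax5, Ncr1, Klrb1c, Lyz2, Csf1r, Adgre1, Itgax and Flt3 were not among the listed genes. Klrd1 was higher in both Tfh-like libraries (4.14 CPM with GFP and 3.66 with Tox2) than in both Th0 libraries (1.71 and 1.30), Cd79a was lower in both (0.766 and 0.971 against 1.41 and 1.73), and Cd8b1 was highest in Tfh-like-Tox2 (15.4 against at most 10.6 in the other libraries). The summed T cell markers were higher in the Tox2 libraries (4338 CPM in Th0 and 4311 in Tfh-like) than in the GFP libraries (3878 and 3781). Most of this lay in Cd4, at 1750 and 1596 CPM with Tox2 against 1284 and 1105 with GFP. Cd3e and Cd3g were also higher with Tox2 in both cultures, and Cd28 and Lck were lower in both. Cd3d was lower in Th0 and higher in Tfh-like. The part of these markers in the culture and virus results was not tested. In these bulk samples fewer cells with a transcript and less of it per cell cannot be told apart.

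The genes lie on 5 chromosomes, and 4 of the 8 form 2 neighbouring pairs (GRCm38, GENCODE M21). Il2ra (chr2:11642807-11693193, plus strand) and Il15ra (chr2:11705290-11734317, plus strand) are 12.1 kb apart, and Il4ra (chr7:125552120-125579474, plus strand) and Il21r (chr7:125603429-125633570, plus strand) are 24.0 kb apart, with 0 annotated genes between the members of either pair. Il7r (chr15:9505788-9530176) and Il2rb (chr15:78479256-78495271) lie far from each other on the minus strand of one chromosome, Il9r is at chr11:32187541-32200279 and Il2rg at chrX:101264378-101268255, both on the minus strand. All 8 are annotated as protein coding. Of the exonic bases of Il2rg, 30.5% are shared with Gm20489 on the same strand, and 9.51% of those of Il4ra with Gm44876 on the opposite strand. Neither of these is among the listed genes, and how reads there were assigned is not given in the sources used here, so the levels of Il2rg and Il4ra are uncertain by reads that may have been dropped.

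The promoters of the 2 members with the widest ranges between libraries are given here, each as the 250 bases before the start site in RefSeq (GRCm38.p6), together with a short site from Il7r. Of the 8 members, 7 have an entry. Capitals mark matches to 1 of 3 motifs: the STAT motif TTCNNNGAA and the AP-1 motif TGANTCA, which read the same on both strands, and the NF-kB consensus searched on both strands. The NF-kB motif was added after the Il2ra sequence had been read.
Il2ra, chr2:11642542-11642791, plus strand: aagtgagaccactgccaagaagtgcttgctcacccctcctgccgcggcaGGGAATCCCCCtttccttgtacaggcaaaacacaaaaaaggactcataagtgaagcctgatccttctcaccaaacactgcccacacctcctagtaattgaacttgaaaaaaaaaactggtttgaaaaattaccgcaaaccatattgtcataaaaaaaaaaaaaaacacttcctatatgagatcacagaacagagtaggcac
Il9r, chr11:32200280-32200529, minus strand: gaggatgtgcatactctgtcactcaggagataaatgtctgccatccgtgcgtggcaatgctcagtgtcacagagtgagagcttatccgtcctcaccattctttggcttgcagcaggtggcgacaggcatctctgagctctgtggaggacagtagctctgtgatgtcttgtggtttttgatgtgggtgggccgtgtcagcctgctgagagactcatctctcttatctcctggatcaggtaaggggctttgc
Il7r, chr15:9530000-9530028, minus strand: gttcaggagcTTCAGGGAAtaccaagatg
In Il2ra the capitals are 2 overlapping NF-kB matches, from 201 to 191 bases before the start, a motif found in 3.90% of 32851 promoter windows of this length. The Il7r site is a TTCNNNGAA match, from 142 to 134 bases before the start, found in 7.02% of windows. GENCODE M21 starts Il7r further upstream, so that the site lies inside its annotated gene. The Il9r window held 0 matches to the 3 motifs. In the other members with an entry the sole match was TGANTCA in 1 of the 2 windows of Il15ra (6.75% of windows). These are matches of letters and were not related to binding.

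Levels were compared between genes per length, as FPKM (fragments per kilobase of transcript, scaled to library depth), with 95% intervals that cover counting error only. Il2rb was the highest member in every library, at 145 in Th0-GFP, 314 in Tfh-like-GFP, 180.4 in Th0-Tox2 and 299 in Tfh-like-Tox2. Among all listed genes these values lay between the 98.2 and 99.3 percentiles. Il2rb made up 33.6%, 36.5%, 39.3% and 45.9% of the summed FPKM of the 8 members in the same order. Its rank above Il2rg is limited by the reads of Il2rg that may have been dropped, and the 2 counting intervals overlapped in Th0-GFP. At the other end Il15ra and Il9r were below 8 FPKM in every library. Il15ra had 1.97, 1.48, 2.30 and 1.98 FPKM.

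In Th0-GFP the order was Il2rb, Il2rg, Il2ra, Il21r, Il4ra, Il7r, Il9r, Il15ra, and the counting intervals overlapped between the neighbours Il2rb and Il2rg, Il2ra and Il21r, and Il9r and Il15ra. In Tfh-like-GFP the order was Il2rb, Il21r, Il2rg, Il2ra, Il4ra, Il7r, Il15ra, Il9r, and only the intervals of Il21r and Il2rg overlapped. In Th0-Tox2 it was Il2rb, Il2rg, Il21r, Il2ra, Il4ra, Il7r, Il9r, Il15ra, and in Tfh-like-Tox2 Il2rb, Il2rg, Il21r, Il4ra, Il2ra, Il7r, Il15ra, Il9r, with 0 of 7 neighbouring pairs overlapping in either. Il2ra was above Il4ra in 3 libraries and below it in Tfh-like-Tox2. These intervals leave out the spread between cultures, which 1 library per group cannot give.

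**Figure D1:**
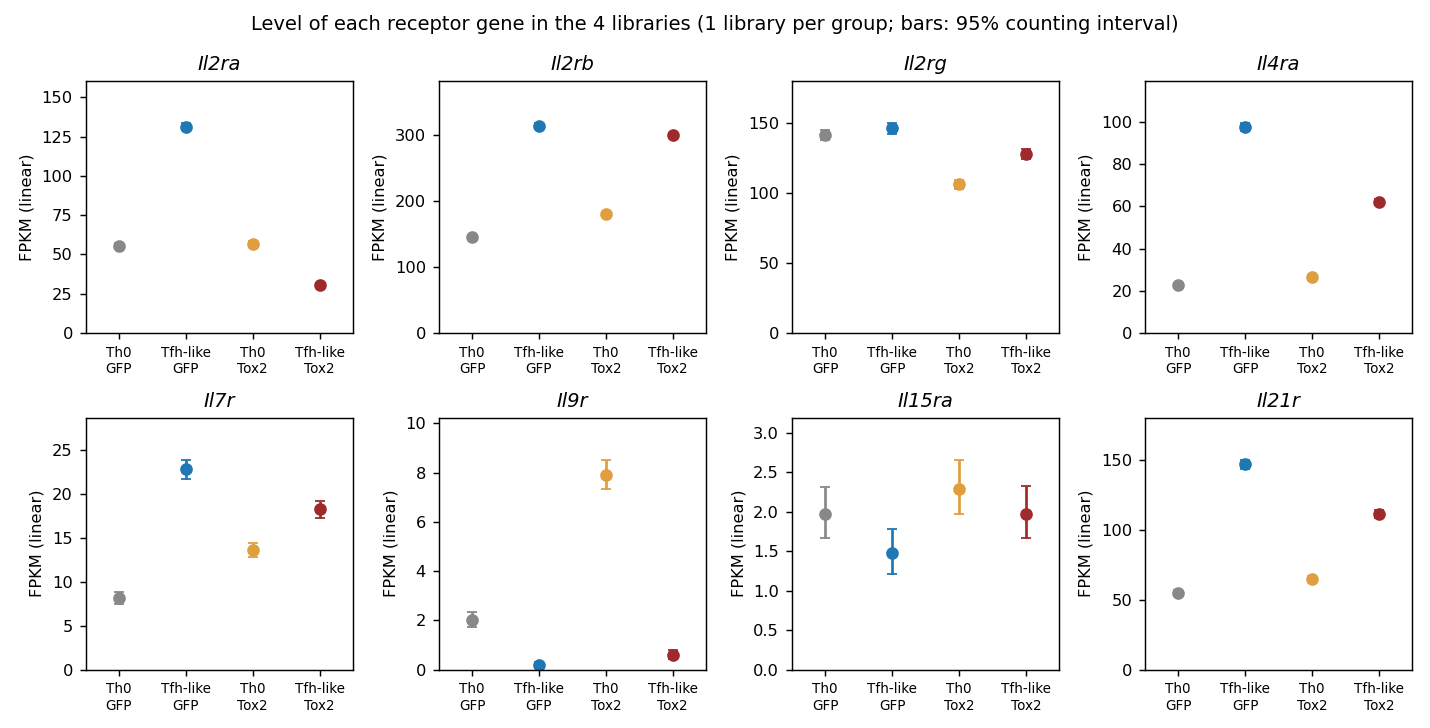
FPKM of each of the 8 receptor genes (linear axes from 0, a separate scale per gene) in Th0-GFP, Tfh-like-GFP, Th0-Tox2 and Tfh-like-Tox2. Each point is 1 library and each bar its 95% counting interval. Il2ra is highest in Tfh-like-GFP (131 FPKM) and lowest in Tfh-like-Tox2 (30.6), and Il9r is highest in Th0-Tox2 (7.90).

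The first comparison asked how the receptors differed between the cultures without and with IL-6. Over both viruses Il2rb, Il4ra, Il7r and Il21r rose in the Tfh-like culture and Il9r fell, so 5 of the 8 members passed (4 up, 1 down), where 24.2% of all tested genes passed, 14.3% up and 9.96% down. Il2ra, Il2rg and Il15ra did not pass. The test was edgeR's quasi-likelihood test of an additive model of culture and virus with Benjamini-Hochberg adjustment over all 10960 genes and a threshold of 0.05. Its 1 residual degree of freedom is how far the Tox2 effect differs from one culture to the other, moderated over genes, so the p-values do not measure replicate spread within a group. "Rose" and "fell" are used of genes that passed it. The median log2 fold over the 8 members was 0.54, and -0.01 over all tested genes.

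Il4ra, the chain that binds IL-4 with gamma-c, had the largest increase among the 4 that rose. It had 2332 counts in Th0-GFP, 9531 in Tfh-like-GFP, 2746 in Th0-Tox2 and 6186 in Tfh-like-Tox2, or 22.8, 97.5, 26.5 and 62.1 FPKM. Both Tfh-like libraries were above both Th0 libraries. The log2 fold of Tfh-like against Th0, in CPM scaled by TMM with a prior count of 2, was 2.07 with GFP (counting interval 2.01 to 2.14) and 1.22 with Tox2 (1.16 to 1.29). Over both viruses Il4ra rose by 1.65 (SE 0.20, edgeR adjusted p = 0.00227).

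Its neighbour Il21r, the private chain of the IL-21 receptor, had 3117 and 7961 counts in Th0-GFP and Tfh-like-GFP and 3731 and 6148 with Tox2. In FPKM this was 55.1, 147, 65.1 and 111. The Tfh-like libraries were again above the Th0 libraries. The log2 folds were 1.39 (1.33 to 1.46) with GFP and 0.77 (0.72 to 0.83) with Tox2, and Il21r rose by 1.08 over both (SE 0.16, edgeR adjusted p = 0.00466). Il21, which encodes the ligand, had 4 and 1015 counts in Th0-GFP and Tfh-like-GFP and 2 and 863 with Tox2, so ligand and receptor transcripts were both higher in the Tfh-like libraries.

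Il2rb, the beta chain shared by the IL-2 and IL-15 receptors, had 10587 and 21900 counts in Th0-GFP and Tfh-like-GFP and 13332 and 21311 with Tox2. Its log2 folds were 1.09 (1.06 to 1.12) with GFP and 0.73 (0.70 to 0.76) with Tox2. Both Tfh-like libraries were higher than both Th0 libraries, and Il2rb rose by 0.91 (SE 0.12, edgeR adjusted p = 0.00297). Il7r, the chain for IL-7, a survival factor of naive and memory T cells, had 647 and 1733 counts in the GFP libraries and 1092 and 1415 in the Tox2 libraries. That is 8.16, 22.8, 13.6 and 18.3 FPKM in Th0-GFP, Tfh-like-GFP, Th0-Tox2 and Tfh-like-Tox2. The Tfh-like libraries were above the Th0 libraries, although the log2 fold was 1.46 (1.33 to 1.60) with GFP and 0.43 (0.31 to 0.54) with Tox2. Il7r rose by 0.94 over both (SE 0.23, edgeR adjusted p = 0.0292). With each library's trend with gene length removed the edgeR adjusted p was 0.0502 at a log2 fold of 0.94, so that the call did not hold there.

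Il9r, the private chain of the IL-9 receptor, had 169 and 16 counts in Th0-GFP and Tfh-like-GFP and 674 and 50 with Tox2. Both Tfh-like libraries were below both Th0 libraries, at 0.199 and 0.609 FPKM against 2.01 and 7.90. The log2 folds were -3.21 (-4.20 to -2.62) with GFP and -3.65 (-4.14 to -3.28) with Tox2, the widest culture folds of the 8 members. Over both viruses the log2 fold was -3.58 (SE 0.20, edgeR adjusted p = 0.000191). Il9r was the sole member that passed in the downward direction.

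Il2rg, the shared chain itself, was nearly level. It had 5743 and 5687 counts in Th0-GFP and Tfh-like-GFP and 4373 and 5065 with Tox2, with log2 folds of 0.03 (-0.03 to 0.08) and 0.27 (0.21 to 0.32) for Tfh-like against Th0. The first of these was -0.07 when counts were scaled by their totals alone. The estimate over both viruses was 0.15 (SE 0.11, edgeR adjusted p = 0.365). Il15ra, which neighbours Il2ra and binds IL-15, had 149 and 107 counts in the GFP libraries and 176 and 146 in the Tox2 libraries. Its log2 folds were -0.43 (-0.81 to -0.07) and -0.21 (-0.54 to 0.11), and it did not pass (-0.32, SE 0.19, edgeR adjusted p = 0.263).

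In single pairs of libraries a gene was called 2-fold apart if the size of its log2 fold reached 1 and the counting interval left out 0. Such calls compare libraries and have no replicate check. With GFP, 6 of the 8 members were 2-fold apart between the cultures (5 higher, 1 lower), against 10.9% of tested genes (7.78% higher, 3.11% lower). Il2ra, Il2rb, Il4ra, Il7r and Il21r were the higher ones and Il9r the lower one. With Tox2, 2 members were 2-fold apart, Il4ra higher and Il9r lower, against 9.43% of tested genes (6.56% higher, 2.86% lower). The median log2 fold of the members was 1.15 with GFP and 0.35 with Tox2, where that of all tested genes was -0.01 and 0.00.

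**Figure D2:**
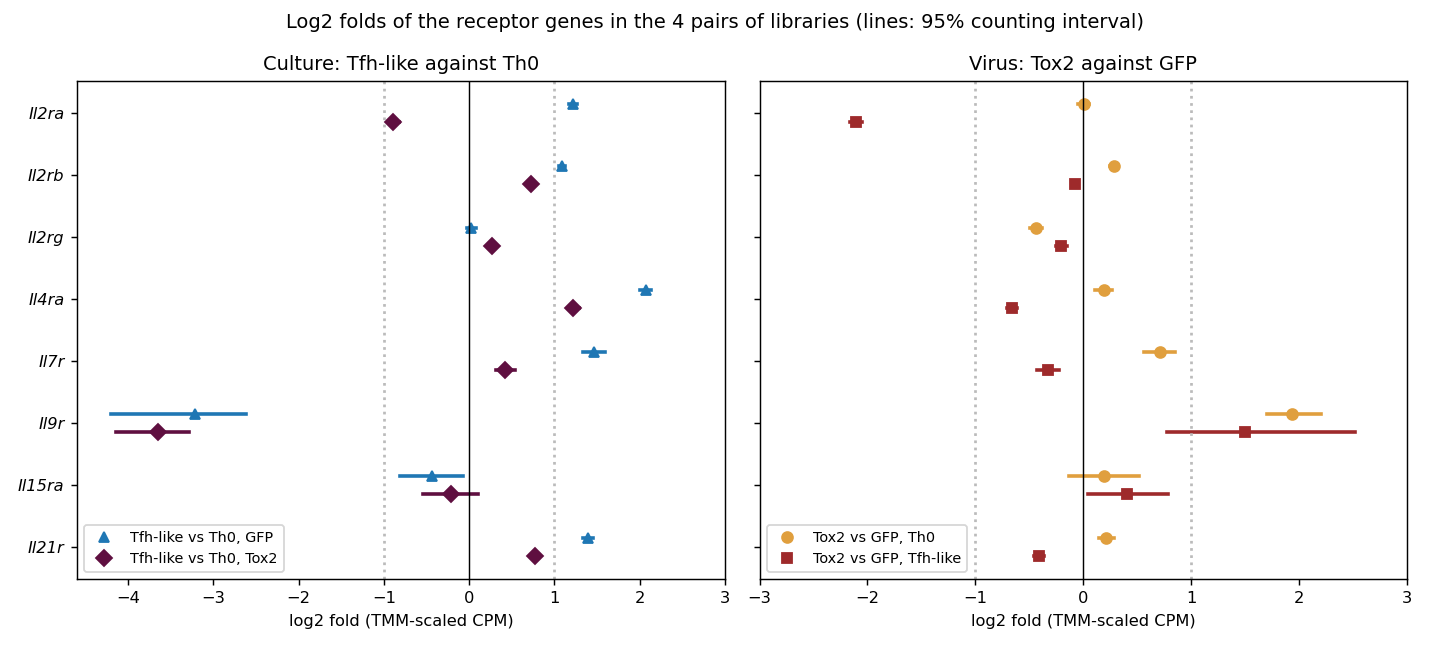
Log2 folds of the 8 receptor genes between libraries, Tfh-like against Th0 on the left (triangles with GFP, diamonds with Tox2) and Tox2 against GFP on the right (circles in Th0, squares in Tfh-like). Lines are 95% counting intervals and dotted lines mark a 2-fold difference. The culture log2 fold of Il2ra is 1.22 with GFP and -0.89 with Tox2, and that of Il9r is below -3 with both viruses.

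The second comparison asked how the receptors differed with forced Tox2 expression. Il9r rose over both cultures and was the 1 member of 8 that passed, where 6.81% of all tested genes passed, 4.07% up and 2.74% down. Tox2 against GFP gave Il9r a log2 fold of 1.94 in Th0 (counting interval 1.70 to 2.20), from 169 to 674 counts, and 1.50 in Tfh-like (0.77 to 2.52), from 16 to 50 counts. Its estimate over both cultures was 1.86 (SE 0.19, edgeR adjusted p = 0.00607). Il9r was thus 3.83-fold higher with Tox2 in Th0 and 2.83-fold in Tfh-like, where its level stayed below that of either Th0 library. It was the 1 member of 8 called 2-fold apart in Th0, against 4.74% of tested genes (3.18% higher, 1.56% lower).

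Il2ra, the high-affinity chain of the IL-2 receptor, was the member whose Tox2 fold depended most on the culture. It had 5402 counts in Th0-GFP, 12209 in Tfh-like-GFP, 5591 in Th0-Tox2 and 2906 in Tfh-like-Tox2. In FPKM this was 55.6, 131, 56.8 and 30.6. The 2 Th0 libraries were alike, and the 2 Tfh-like libraries lay above and below them. Tox2 against GFP gave 0.00 (-0.05 to 0.06) in the Th0 culture and -2.11 (-2.17 to -2.05) in the Tfh-like culture, where the GFP library had 4.30-fold more. In the additive test Il2ra had a log2 fold of -1.05 with an SE of 0.45 (edgeR adjusted p = 0.192) for the virus and 0.17 with an SE of 0.45 (adjusted p = 0.816) for the culture, since the unequal folds enter the spread. Its culture log2 fold was 1.22 with GFP and -0.89 with Tox2, and it was the 1 member of 8 whose culture folds had opposite signs with both intervals excluding 0, against 2.24% of tested genes in these directions and 3.24% in either. In Tfh-like, Il2ra and Il9r were the 2 members called 2-fold apart with Tox2, against 4.75% of tested genes (2.86% higher, 1.90% lower).

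The 4 members that rose with the culture had Tox2 log2 folds under 1 in size, above 0 in Th0 and below 0 in Tfh-like. The log2 folds of Il7r were 0.71 (0.57 to 0.85) and -0.33 (-0.43 to -0.23). Those of Il4ra were 0.19 (0.11 to 0.27) and -0.66 (-0.71 to -0.61), and those of Il21r 0.21 (0.14 to 0.28) and -0.41 (-0.46 to -0.36). Il2rb had 0.29 (0.25 to 0.32) and -0.08 (-0.10 to -0.05). These 4 of 8 members had opposite signs with both intervals excluding 0, as had 2.96% of tested genes in the same directions and 4.51% in either. Intervals are narrower for genes with high counts such as these. None of these 4 passed for the virus, with edgeR adjusted p from 0.468 for Il4ra to 0.719 for Il21r.

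Il2rg was lower with Tox2 in both cultures, with log2 folds of -0.44 (-0.50 to -0.38) in Th0 and -0.20 (-0.26 to -0.15) in Tfh-like, and did not pass (-0.32, SE 0.11, edgeR adjusted p = 0.118). Il15ra had log2 folds of 0.19 (-0.13 to 0.52) and 0.41 (0.04 to 0.79) and did not pass (0.30, SE 0.19, adjusted p = 0.356). The members' median log2 fold of Tox2 against GFP was 0.20 in Th0 and -0.27 in Tfh-like, and 0.00 over all tested genes in both.

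The difference of the Tox2 log2 fold between the cultures (Tfh-like minus Th0) leaves no degree of freedom, so it is given with a counting interval and was not tested. It was -2.11 (-2.19 to -2.03) for Il2ra and -1.03 (-1.21 to -0.86) for Il7r, the 2 of 8 members called at least 2-fold apart, against 3.73% of tested genes, 1.96% with the lower fold in Tfh-like as here. For Il7r the call rests on a value close to the limit, and with counts scaled by their totals alone Il2ra was the 1 member called. Il4ra did not reach the limit at -0.85 (-0.94 to -0.76). Il21r had -0.62, Il9r -0.44 (-1.25 to 0.37) and Il2rb -0.36, while Il2rg and Il15ra had 0.24 and 0.22 (-0.26 to 0.69). The difference was below 0 in 6 of the 8 members and in 50.1% of all tested genes, and the median was -0.53 and 0.00. The count of 6 is read over members that share 4 libraries and is a description of these libraries.

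Because a ratio of 2 genes within a library does not depend on the scaling between libraries, each other member was also set against Il2rg. Il2rg itself had Tox2 log2 folds of -0.44 in Th0 and -0.20 in Tfh-like, so the percents also move with Il2rg. Il2ra stood at 39.3% of the Il2rg FPKM in Th0-GFP (counting interval 37.9 to 40.8), 89.7% in Tfh-like-GFP (86.9 to 92.6), 53.4% in Th0-Tox2 (51.4 to 55.6) and 24.0% in Tfh-like-Tox2 (22.9 to 25.1). The Tox2 log2 fold of Il2ra was 0.00 in Th0, so its higher percent in Th0-Tox2 than in Th0-GFP reflects the lower Il2rg level. Il2rb was equal to Il2rg within counting error in Th0-GFP, at 103% (99.4 to 106), and was at 214% in Tfh-like-GFP, 169.8% in Th0-Tox2 and 234% in Tfh-like-Tox2. The ratio of Il2ra to Il2rb in FPKM was 0.383, 0.418, 0.315 and 0.102 in the same order of libraries. The ratio of these 2 chains of the IL-2 receptor was lowest in Tfh-like-Tox2, with a counting interval of 0.0984 to 0.106, and lay between 0.315 and 0.418 in the other libraries.

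Il4ra was at 16.1% of Il2rg in Th0-GFP, 66.7% in Tfh-like-GFP, 24.97% in Th0-Tox2 and 48.6% in Tfh-like-Tox2. Il21r was at 39.0%, 100.5%, 61.3% and 87.2%, and in Tfh-like-GFP its interval (97.1 to 104) included the level of Il2rg. Il7r was at 5.77% in Th0-GFP and at 12.8% to 15.6% in the other libraries. Against Il7r, Il2ra was 6.82-fold, 5.75-fold, 4.18-fold and 1.68-fold higher, so that Tfh-like-Tox2 had the smallest excess of the IL-2 over the IL-7 receptor chain. Il9r was at 1.42%, 0.136%, 7.44% and 0.476%, and Il15ra at 1.01% to 2.16%. The ratios to Il2rg share its uncertain level noted above, and its lower level with Tox2 in both cultures.

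**Figure D3:**
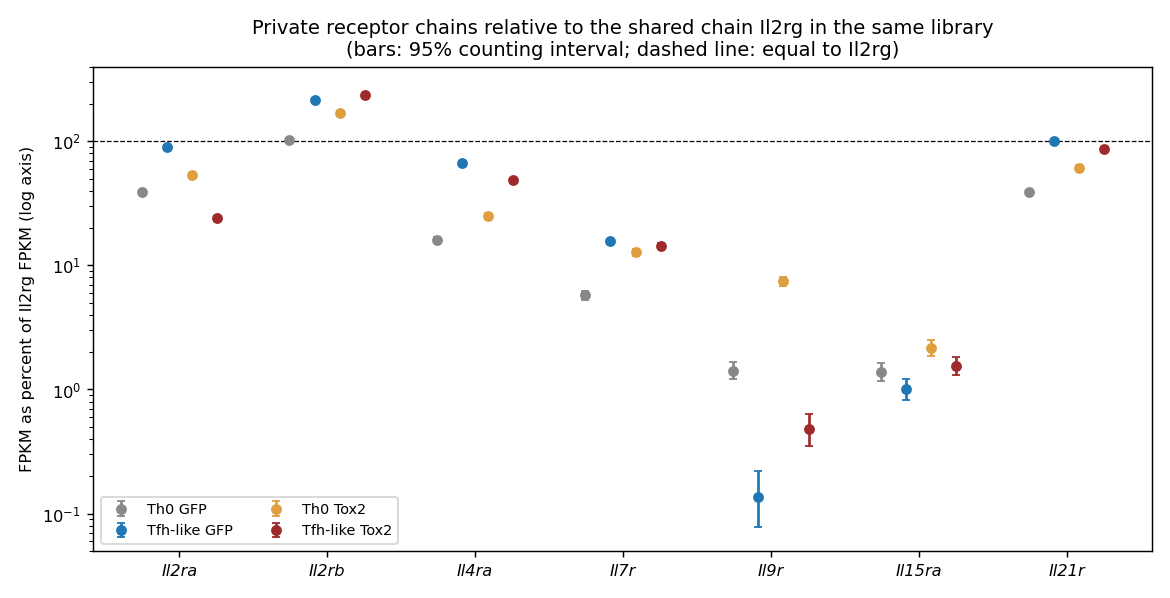
FPKM of each other member as a percent of the FPKM of Il2rg in the same library (log axis), with 95% counting intervals. The dashed line marks the level of Il2rg. Il2rb lies at or above the line in all 4 libraries, from 103% to 234%, and Il2ra is lowest in Tfh-like-Tox2 at 24.0%.

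The other genes of the pathway were taken from 7 lists of 50 genes, of which 43 were listed and tested. With the culture 16 rose and 5 fell, and with Tox2 4 rose and 4 fell, to be read against the 24.2% and 6.81% of all tested genes given above. With limma-voom 11 passed for Tox2, and with the length trends removed 4. Of the 6 ligand genes, Il2 and Il21 were listed, and Il4, Il7, Il9 and Il15 were not. Il2, the T-cell growth factor, had 185 and 74 counts in Th0-GFP and Tfh-like-GFP and 130 and 47 with Tox2, and fell with the culture (-1.34, SE 0.21, edgeR adjusted p = 0.00650). For the virus Il2 had -0.61 (adjusted p = 0.127). Il21 rose with the culture by 8.28 (SE 0.22, adjusted p = 3.02e-05) and had -0.29 for the virus (adjusted p = 0.272). The fitted culture fold of Il21 rests on 2 and 4 counts in the Th0 libraries.

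Crlf2, which pairs with Il7r in the TSLP receptor, had 1105, 1077, 974 and 1222 counts in Th0-GFP, Tfh-like-GFP, Th0-Tox2 and Tfh-like-Tox2 and passed for neither effect (adjusted p of 0.308 for the culture and 0.868 for the virus). Il13ra1, which pairs with Il4ra, and Tslp were not among the listed genes. Il13, whose receptor uses Il4ra, had 4 and 1 counts in Th0-GFP and Tfh-like-GFP and 61 and 19 with Tox2. It rose with Tox2 (3.90, SE 0.50, adjusted p = 0.0116) and fell with the culture (-1.65, SE 0.43, adjusted p = 0.0363, but 0.369 with DESeq2). Il13 is measured on few counts.

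Of the 6 kinase and STAT genes, 4 rose with the culture and 0 passed for the virus by edgeR, DESeq2 or limma-voom. For the virus 3 of the 6 had an unadjusted edgeR p under 0.05, as had 3003 of all 10960 tested genes. Jak3, the kinase bound by gamma-c, rose by 0.84 (SE 0.10, edgeR adjusted p = 0.00186). Jak1, which Il2rb, Il4ra, Il7r, Il9r and Il21r bind, had 0.36 (adjusted p = 0.0731). Stat3, the main STAT of the IL-6 and IL-21 receptors, rose by 1.24 (SE 0.17), Stat5a by 1.03 (SE 0.14) and Stat5b by 0.74 (SE 0.16). Stat6, which IL-4 activates, had 0.17 (adjusted p = 0.260), with 4104 to 4546 counts in the 4 libraries. The Tox2 log2 folds in Th0 and Tfh-like were 0.82 and 0.11 for Stat3, 0.33 and -0.19 for Stat5a and 0.57 and -0.05 for Stat5b. They were 0.15 and 0.50 for Jak1, -0.23 and -0.26 for Jak3, and -0.03 and 0.00 for Stat6, so the genes of this list did not share one direction.

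Of the 7 feedback inhibitors 4 rose with the culture. Socs3 rose, with log2 folds of 5.33 with GFP and 4.71 with Tox2, Socs1 by 1.78 (SE 0.15), Cish, a STAT5 target, by 1.30 (SE 0.13), and the phosphatase gene Ptpn2 by 0.78 (SE 0.10). With Tox2, Socs3 (1.01, SE 0.16, edgeR adjusted p = 0.0221) and the adaptor gene Sh2b3 (0.48, SE 0.10, adjusted p = 0.0446, but 0.120 with DESeq2) rose, and Ptpn6, encoding the phosphatase SHP-1, fell (-0.61, SE 0.10, adjusted p = 0.0250). Sh2b3 also missed the threshold with a filter of CPM of at least 5 (edgeR adjusted p = 0.0501) and with the length trends removed (0.0627). Of the 7 listed adaptor and PI3K genes, Gab2 rose with the culture (0.94, SE 0.27, edgeR adjusted p = 0.0463, but 0.191 with DESeq2). Its call was also lost with the filter of CPM of at least 5 (edgeR adjusted p = 0.0530) and with the length trends removed (0.0568). For Tox2 0 of the 7 passed by edgeR or DESeq2 and 1 by limma-voom, and 3 had an unadjusted edgeR p under 0.05.

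**Figure D4:**
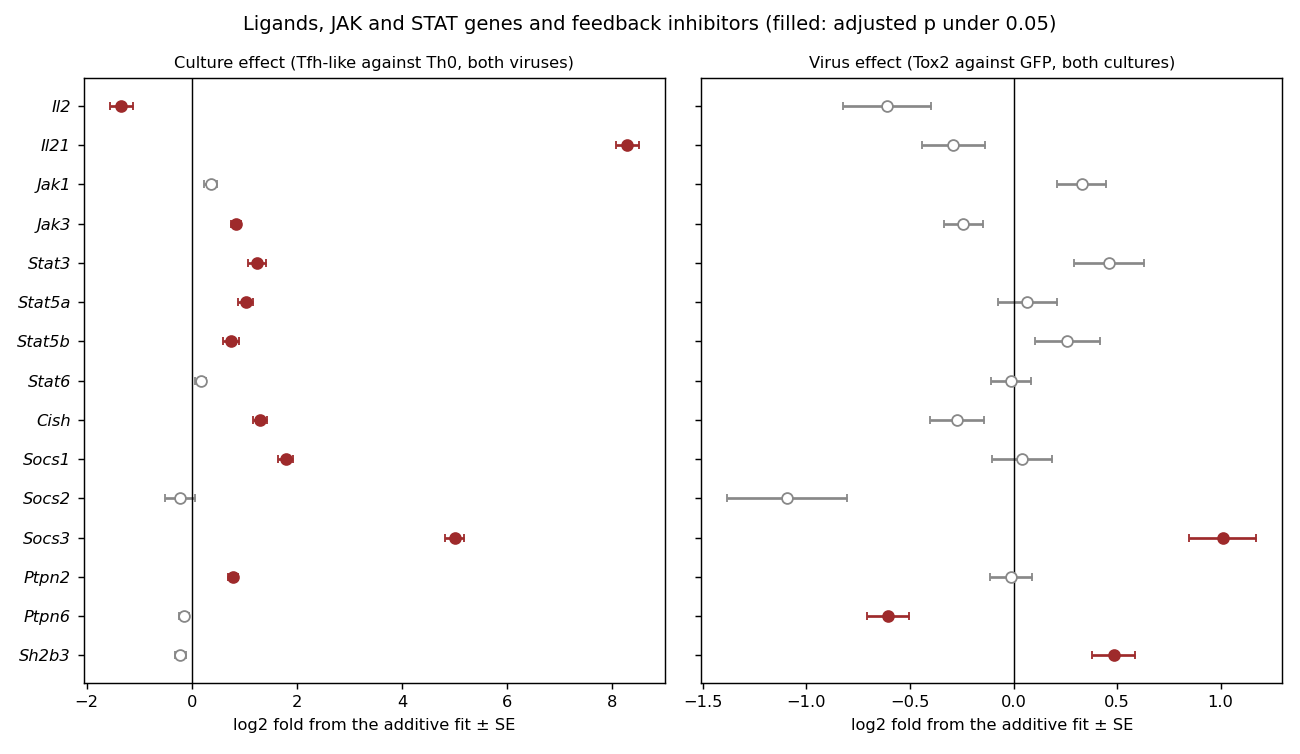
Log2 folds (points, with SE as bars) from the additive fit for 15 ligand, kinase, STAT and feedback genes, for the culture on the left and for the virus on the right, on separate axes. Filled points passed at an adjusted p under 0.05. For the culture 10 points are filled, of which Il2 alone is below 0, and for the virus Socs3, Ptpn6 and Sh2b3 are filled.

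Of the 11 IL-2 and STAT5 target genes, 3 rose and 1 fell with the culture, and 3 fell and 0 rose with Tox2. With limma-voom 4 fell and 1 rose with Tox2, and with total scaling 5 fell and 1 rose. Bcl2 was higher with Tox2 but did not pass (0.55, SE 0.13, edgeR adjusted p = 0.0558). Its Tox2 log2 folds were 0.75 in Th0 and 0.35 in Tfh-like. Pim1, a survival kinase, rose with the culture by 1.54 (SE 0.17), the cyclin gene Ccnd3 by 0.72 (SE 0.12) and the cytokine gene Osm by 0.68 (SE 0.15), while Bcl2l1, encoding BCL-XL, had -0.62 (SE 0.13, edgeR adjusted p = 0.0185). With Tox2, Gzmb, encoding granzyme B, fell (-3.13, SE 0.47, adjusted p = 0.0184), as did Osm (-0.76, SE 0.15, adjusted p = 0.0346) and Bcl2l1 (-0.65, SE 0.13, adjusted p = 0.0402). With the length trends removed these 3 missed the threshold, with adjusted p of 0.0532 for Gzmb, 0.0627 for Osm and 0.0647 for Bcl2l1, and with DESeq2 Osm missed it for both effects (0.140 for Tox2 and 0.131 for the culture). The list had a median log2 fold of Tox2 against GFP of -0.30 in the Th0 culture and -0.60 in the Tfh-like culture, with 0.00 over all tested genes. Of 8 genes for transcription factors known to act at Il2ra or Il7r, 3 rose and 2 fell with the culture, and with DESeq2 1 rose and 2 fell. Nfatc2 rose by 1.06 (SE 0.12) and Runx1 by 0.48 (SE 0.10, adjusted p = 0.0177, but 0.0753 with DESeq2), and Rel, encoding the NF-kB subunit c-Rel, and Nfatc1 fell (-1.05, SE 0.14, and -0.72, SE 0.10). With Tox2 Ets1 was the 1 that passed, and it rose by 0.63 (SE 0.10, adjusted p = 0.0191).

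For each of the 6 members with a range of at least 1 on the log2 scale, the genes with the most similar profile over the 4 libraries were sought among 9633 genes with a mean CPM of at least 5, by the Euclidean distance of log2 CPM centred on each gene's mean. Il2rb had the closest neighbour, Sema4d at a distance of 0.03, with 2759, 5874, 3500 and 5670 counts in Th0-GFP, Tfh-like-GFP, Th0-Tox2 and Tfh-like-Tox2. The nearest to Il21r was Kank3 (0.09), and to Il4ra Gprin3 (0.13), and Med13l (0.12) was among the nearest to Il7r. Il2ra and Il9r had no gene so close. The distance is not scaled to a gene's range, which was 5.15 on the log2 scale for Il9r, 2.11 for Il2ra and 2.07 for Il4ra. Il9r also rests on 16 and 50 counts in the Tfh-like libraries. The nearest to Il2ra were Cpne2 (0.58), Cpox (0.69) and Fdps (0.70), and the nearest to Il9r were Cx3cl1 (0.74), Nod1 (0.86) and Eomes (0.95). Cpne2 had 145, 187, 105 and 58 counts, a smaller range than that of Il2ra.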

How the data were processed

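Per the labels' protocols, RNA was extracted with Trizol and sequenced at BGI Genomics. The deposited files give, per the file headers, whole-number read counts per gene and the authors' FPKM. The submitters' processing notes name mm10 and the tools Bowtie2, featureCounts, Subread, edgeR, MACS2 and Trim Galore 0.4.4, giving neither role nor order, and the strand setting is not given in the sources used here. For the 8 members the deposited FPKM uses the exonic lengths of GENCODE M21, with a library total of 17005292 in Th0-GFP, where 13015283 counts are listed. The listed genes had been reduced already (CPM of at least 0.658 in the second-highest library).

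Counts were scaled by TMM (edgeR 4.0.16, R 4.3.3; factors 0.966 to 1.03), and a gene was tested if any library reached a CPM of 1. The additive fit had a common coefficient of variation of 0.105 and a median of 5.52 prior degrees of freedom. SE is the log2 fold over the root of F. Pair intervals are exact conditional binomial intervals (95%) and hold only counting error, as PCR copies cannot be told from separate molecules here. FPKM intervals are exact Poisson intervals. Alternatives used DESeq2 1.42.0, limma 3.58.1, RLE or total scaling, other filters and prior counts, and removal of each library's lowess trend with gene length. The members and lists were chosen with earlier results of these data known. All members and the ligand, partner chain, kinase and STAT genes of the lists were named, up to 4 passing genes per effect of other lists, and up to 3 nearest profiles per member. Bcl2, which passed for neither effect, was named in addition. A few genes of the lists and profiles are not reported here.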

Additional observations from a re-analysis of the deposited data

Results flagged for a closer look

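In 5 members the fold between 2 libraries had opposite signs in the 2 settings where it could be read, with both counting intervals excluding 0. The difference was not tested, since 1 library per group leaves no replicate. Il2ra had a culture log2 fold of 1.22 with GFP and -0.89 with Tox2. The Tox2 log2 folds in Th0 and in Tfh-like were 0.71 and -0.33 for Il7r, 0.19 and -0.66 for Il4ra, 0.21 and -0.41 for Il21r, and 0.29 and -0.075 for Il2rb. By the same rule, 2.24% of all tested genes had a culture fold above 0 with GFP and below 0 with Tox2, as Il2ra did, and 2.96% had a Tox2 fold above 0 in Th0 and below 0 in Tfh-like, as the other 4 did. Intervals are narrower for genes with high counts such as these, so small folds can meet the rule. By sign alone, 14.7% of all tested genes and 5 of the 8 members had a Tox2 fold above 0 in Th0 and below 0 in Tfh-like.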

How the results depend on the processing

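No paired analysis was possible because each group has 1 library, and for the same reason no library could be left out of a test. The counts of members passing for the virus (1) and the culture (4 or 5) held their side under RLE and total scaling, other filters, DESeq2, limma-voom and removal of the length trend, except that Il7r missed the threshold with the length trend removed (edgeR adjusted p = 0.0502). With counts scaled by their totals, 1 member in place of 2 was called for the difference of its Tox2 folds, and Il2rb was at 0.99 and not 2-fold apart with GFP, which left 5 members and not 6. Total scaling moved the median of all tested genes to -0.11 for the culture with GFP, and the culture calls from 1564 up and 1092 down to 1500 up and 1649 down. For the virus 746 genes passed, and 1193 with total scaling, 492 with DESeq2 and 388 with the length trend removed. Of the pathway genes 8 passed for the virus, and 15 with total scaling and 4 with the length trend removed. For the culture 2656 genes passed, and 1609 with DESeq2. No called member reversed under these alternatives. Depth limits Il9r in Tfh-like (16 and 50 counts) and Il15ra.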
